A study of Mus musculus with 6 samples.

Results

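The genes described here encode the proteasome, the protease that degrades ubiquitin-marked proteins, together with its activators and assembly factors. They were taken from the expression tables by symbol: Psm, a letter from a to g, digits and an optional lower-case letter, with the interferon-inducible Psmb8 and Psmb9 left out. This gave 47 genes, of 20788 in the tables. Of the 47, 43 are constitutive subunits, activators, an inhibitor or assembly chaperones, and 4 are not. Psmb10 is an inducible subunit, Psmb11 is thymus-restricted, Psme2b is a copy of Psme2, and Psmc3ip only shares the prefix and acts in meiotic recombination. All 47 are counted below as members, or proteasome genes, by symbol, with Psmc3ip included. Psma8, the testis form of an alpha subunit, was listed in no library.

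B16 is a melanoma line from C57BL/6 mice. Subclones had been grown from single colonies and assigned by tyrosinase activity and tyrosine use to Tyr-L cells (low) and Tyr-H cells (high). The labels name no treatment, and both were grown in low-glucose DMEM with serum. Messenger RNA was sequenced in 3 libraries of each group, numbered 1 to 3. The labels do not say whether the 3 libraries were separate cultures or clones, so the p-values measure the spread between these libraries, which may be technical. Values are FPKM, fragments per kilobase of transcript, scaled for sequencing depth, so levels of different genes are compared per length.

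The core of the proteasome is a barrel in which rings of alpha subunits gate a chamber of beta subunits. Of the latter, Psmb5, Psmb6 and Psmb7 carry the active sites. The 19S regulatory particle caps the barrel: its ATPases (Psmc genes) unfold the substrate, and the non-ATPase subunits of its lid and base (Psmd genes) bind and remove ubiquitin. Other caps, encoded by the Psme genes, open the gate without ATP. Assembly chaperones bring the subunits together and then leave. The transcription factor NRF1, encoded by Nfe2l1, induces proteasome genes when proteolysis is impaired.

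Between 16813 and 17413 genes were listed per library, and the step between the lowest values put the depth at 18900000 to 21600000 fragments. Tyr, the gene behind the group names, had 10.7, 9.52 and 9.80 FPKM in Tyr-L cells and 23.8, 20.6 and 19.7 in Tyr-H cells, in the order of the labels. The 7 melanocyte markers were all listed and summed to 7343 to 7660 FPKM in Tyr-L cells and 5438 to 5958 in Tyr-H cells. Apart from Tyr (1.08), all were lower in Tyr-H cells on the deposited values (limma). They ran from Mitf (-1.85), the lineage's transcription factor, through Pmel (-0.73) and Dct (-0.64) to Tyrp1 (-0.23). For the proteins, the paper reports more Tyrosinase, TYRP1 and TYRP2 (encoded by Dct) in Tyr-H cells and no difference in MITF. The part of these marker differences in the other results was not tested. Of 5 leukocyte markers 1 was listed, at no more than 0.0169 FPKM, and of 3 endothelial markers 1, at no more than 0.0540 FPKM. The 3 fibroblast markers summed to 0.928 to 1.03 FPKM in Tyr-L cells and 0.929 to 1.08 in Tyr-H cells, with Col1a1 higher (0.71) and Col1a2 lower (-0.91). Over all tested genes the median log2 fold change (Tyr-H over Tyr-L) was not 0 but -0.15 (quartiles -0.46 and 0.14). Differences are therefore also read against this median and under 5 scalings: the values as deposited, an equal total of 1000000 FPKM per library, median ratio scaling, quantile normalization, and values corrected for the GC content and length of the genes. The last also centres each library, and its all-gene median was 0.00. A shift under it therefore includes this centring beside any effect of GC content and length. After median ratio scaling the melanocyte marker Mitf was at -1.70, whereas Mlana and Tyrp1 were at -0.09 and -0.08. In RNA from bulk cultures, fewer cells of a type and less RNA per cell cannot be told apart.

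The proteasome genes differed little between the cells. Of 45 that reached a mean of 0.1 FPKM, none passed an adjusted p of 0.05 (limma) with a log2 fold change of at least 1, which 8.75% of all 14336 tested genes did; no member reached that fold at any p. Their log2 fold changes ran from -0.79 (Psma5) to 0.35 (Psmb10), with a median of -0.14 and quartiles of -0.32 and -0.02. An absolute log2 fold change of 0.5 was reached by 2 of them (4.44%), Psma5 and Psma1, and by 31.6% of all tested genes. The members had means of 12.9 to 275 FPKM, whereas the tested genes go down to 0.1 FPKM. Genes at matched levels were not compared. The plot of log2 fold change against level shows them as a narrow band within the cloud of tested genes.

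**Figure D1:**
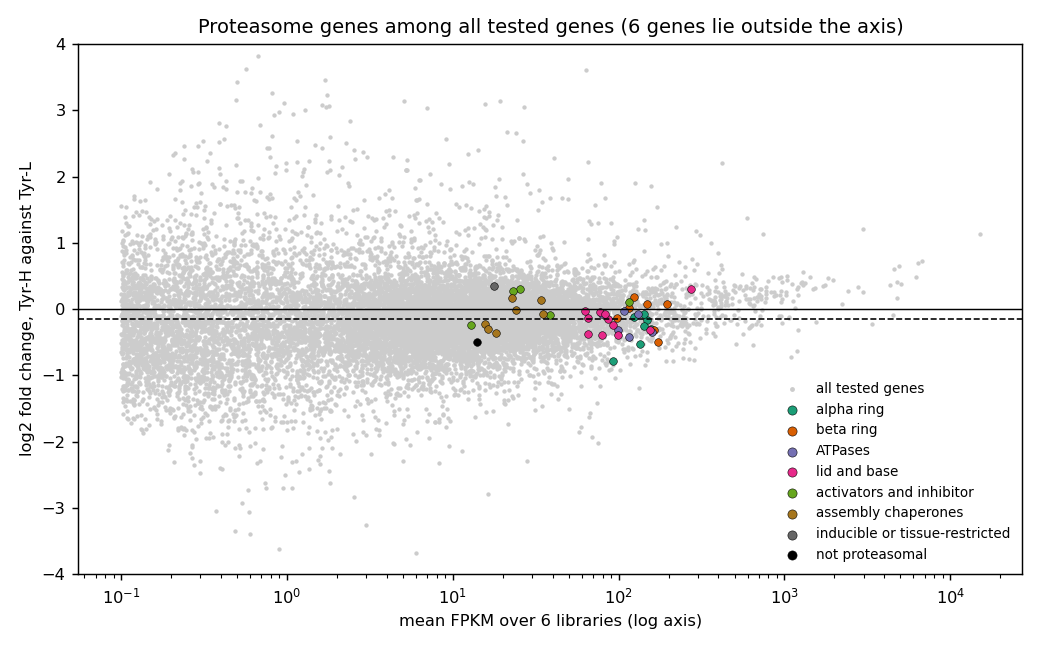
Each point is a gene, with its mean FPKM over 6 libraries on the log x axis and its log2 fold change (Tyr-H over Tyr-L) on the y axis; the dashed line is the median of all tested genes (-0.15). The 45 proteasome genes, coloured by class, lie between -0.79 and 0.35, and 6 of the other genes lie outside the axis.

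Small as they were, many of these differences exceeded the spread between libraries. At an adjusted p of at most 0.05 (limma), 24 of 45 members (53.3%) were lower in Tyr-H cells, against 39.9% of all tested genes. Another 8 (17.8%) were higher, against 17.9%, and 13 were not called (57.8% of all tested genes were called in either direction). The 3 Tyr-H values lay below all 3 Tyr-L values for 27 members (60.0%, against 43.8% of all tested genes) and above them for 8 (17.8%, against 20.2%), and the groups overlapped for 10, whereas 64.0% of all tested genes had groups that did not overlap. Without Tyr-L replicate 1 the calls were 24 lower and 5 higher, and the matching shares of all genes were not counted. The balance of the 2 directions followed the scaling, with 33 lower and 3 higher at equal totals, 17 and 15 after median ratio scaling, 21 and 9 after quantile normalization, and 15 and 17 after the GC and length correction. The matching shares of all genes were 44.0% and 12.0%, 27.0% and 27.9%, 27.8% and 26.1%, and 26.0% and 28.3%. Under every one of the 5 scalings 13 members (28.9%, against 22.3% of all genes) were lower, namely Psma1, Psma5, Psma7, Psmb4, Psmc1, Psmc3, Psmc4, Psmd1, Psmd2, Psmd4, Psmd12, Psmd14 and Psmc3ip. Only Psmd8, Psme1 and Psmb10 were higher under all 5 (6.67%, against 12.6%). When limma was run without a variance trend, Psmd8 and Psmb10 were the 2 members still called higher, and Psmb5, Psme1, Psme2, Psme3, Psmg3 and Psmg4 were not called. The sign itself changed between scalings for 18 members. Relative to the all-gene median, 20 members lay below and 25 above.

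**Figure D2:**
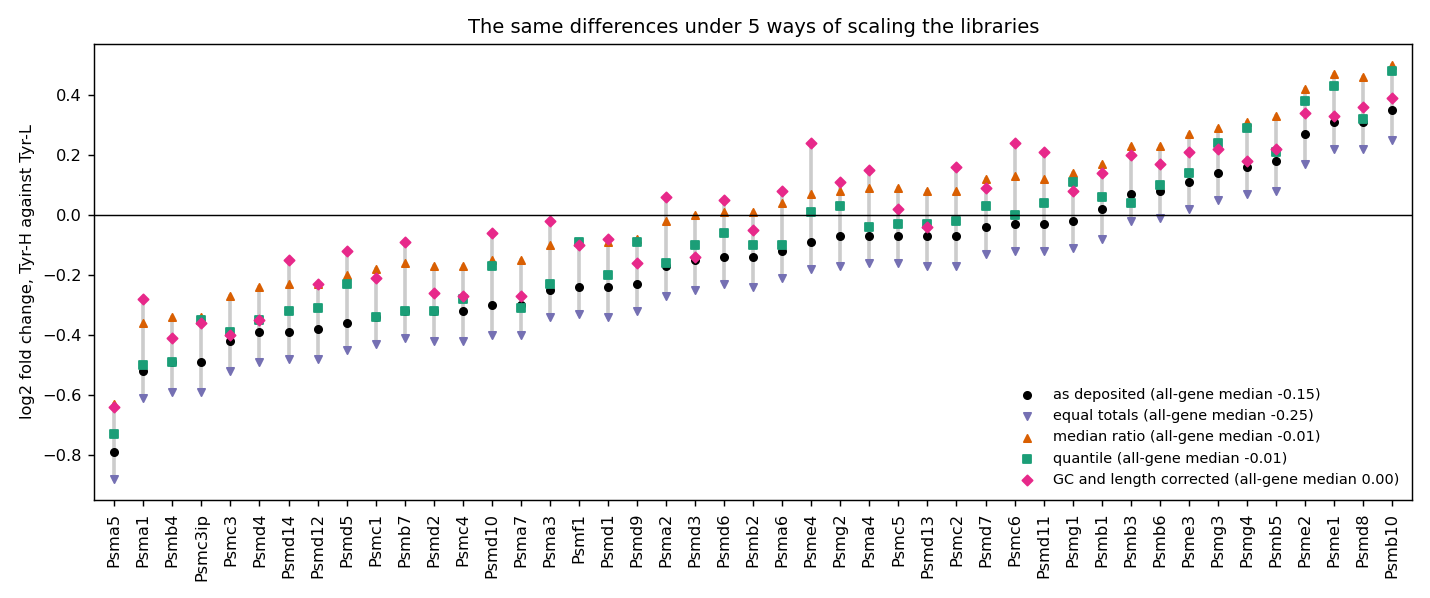
Each column is a proteasome gene, ordered by its log2 fold change as deposited; the 5 symbols give the log2 fold change (Tyr-H over Tyr-L, y axis) under 5 scalings, whose all-gene medians range from -0.25 to 0.00. Genes at both ends keep their side of 0 under all 5, and 18 genes near the middle change sign.

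The stretches before the start sites of 5 members are shown because these genes had the largest decreases in the alpha ring (Psma5, Psma1) and in the lid and base (Psmd4), or the increases past the test in the lid and base (Psmd8) and the beta ring (Psmb5). They are cut from RefSeq promoter windows of GRCm38.p6, run 5′ to 3′ on the gene's strand, and leave out annotated exons. Capitals mark matches, on either strand, to CCAAT, to the ETS core CCGGAAG or to the antioxidant response element TGANNNNGC, of which TGACNNNGC is the narrower form.
Psma5, chr3:108256676-108256877, plus strand: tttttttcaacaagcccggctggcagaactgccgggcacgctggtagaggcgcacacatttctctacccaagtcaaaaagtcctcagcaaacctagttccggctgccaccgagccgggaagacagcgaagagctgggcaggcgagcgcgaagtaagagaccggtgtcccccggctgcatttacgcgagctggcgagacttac
Psma1, chr7:114276119-114276366, minus strand: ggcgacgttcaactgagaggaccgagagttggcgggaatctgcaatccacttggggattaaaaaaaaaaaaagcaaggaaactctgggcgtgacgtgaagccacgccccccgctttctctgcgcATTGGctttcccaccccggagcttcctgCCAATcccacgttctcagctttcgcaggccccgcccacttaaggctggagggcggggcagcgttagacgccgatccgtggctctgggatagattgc
Psmd4, chr3:95042615-95042864, minus strand: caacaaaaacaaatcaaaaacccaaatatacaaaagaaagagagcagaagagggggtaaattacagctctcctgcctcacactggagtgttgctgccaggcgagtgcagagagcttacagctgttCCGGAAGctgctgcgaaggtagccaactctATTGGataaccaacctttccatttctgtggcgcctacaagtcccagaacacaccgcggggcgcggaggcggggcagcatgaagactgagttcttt
Psmd8, chr7:29180702-29180923, minus strand: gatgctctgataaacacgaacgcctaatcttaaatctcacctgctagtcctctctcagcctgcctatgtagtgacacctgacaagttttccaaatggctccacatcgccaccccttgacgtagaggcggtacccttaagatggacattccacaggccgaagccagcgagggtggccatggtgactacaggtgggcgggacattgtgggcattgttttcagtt
Psmb5, chr14:54618023-54618245, minus strand: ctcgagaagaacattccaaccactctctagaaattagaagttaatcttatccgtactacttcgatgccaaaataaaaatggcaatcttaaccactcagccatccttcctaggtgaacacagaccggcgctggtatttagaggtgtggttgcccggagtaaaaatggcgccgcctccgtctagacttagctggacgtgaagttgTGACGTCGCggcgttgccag
The Psma1 stretch held CCAAT matches 126 bases before the start on the minus strand and 98 bases before it on the plus strand. Psmd4 had an ETS match 125 bases and a CCAAT match 95 bases before its start. Psmb5 had a TGACNNNGC match 47 bases before its start, whereas the Psma5 and Psmd8 stretches held no match. Over the whole windows, which run from 250 bases before to 50 bases after the start, 40 members had an entry. The ETS core stood in 15 of these (37.5%), against 8.86% of the 32817 windows of the table. CCAAT stood in 14 (35.0%, against 37.4%), TGANNNNGC in 22 (55.0%, against 41.3%) and TGACNNNGC in 6 (15.0%, against 12.4%). The 22 include Psma5 and Psmd8, whose matches lie outside the stretches shown. Among members lower in Tyr-H cells 10 of 20 held CCAAT, among those higher 1 of 8, and among those not called 2 of 10, with Psmb11 not tested. The ETS core was in 7, 2 and 6 of the same groups. These matches are letters in a window and were not tested for binding.

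Core subunits had means over all libraries of 92.7 to 196 FPKM and 19S subunits of 62.5 to 275 FPKM. The activators and the inhibitor ran from 12.9 to 116 FPKM, and the assembly chaperones from 15.6 to 35.2 FPKM. Psmd8 was highest, with Psmb3 (196 FPKM) and Psmb4 (172 FPKM) after it. Levels within a ring lay close together: the highest mean was 1.48 times the lowest in the alpha ring of Tyr-L cells and 2.07 times in Tyr-H cells, where Psma5 was lowest. In the beta ring these ratios were 1.95 and 2.15, and among the ATPases 2.20 and 1.83. Among the lid and base subunits they were 3.89 and 5.35, with Psmd8 at the top. The plot of levels by library shows the same order.

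**Figure D3:**
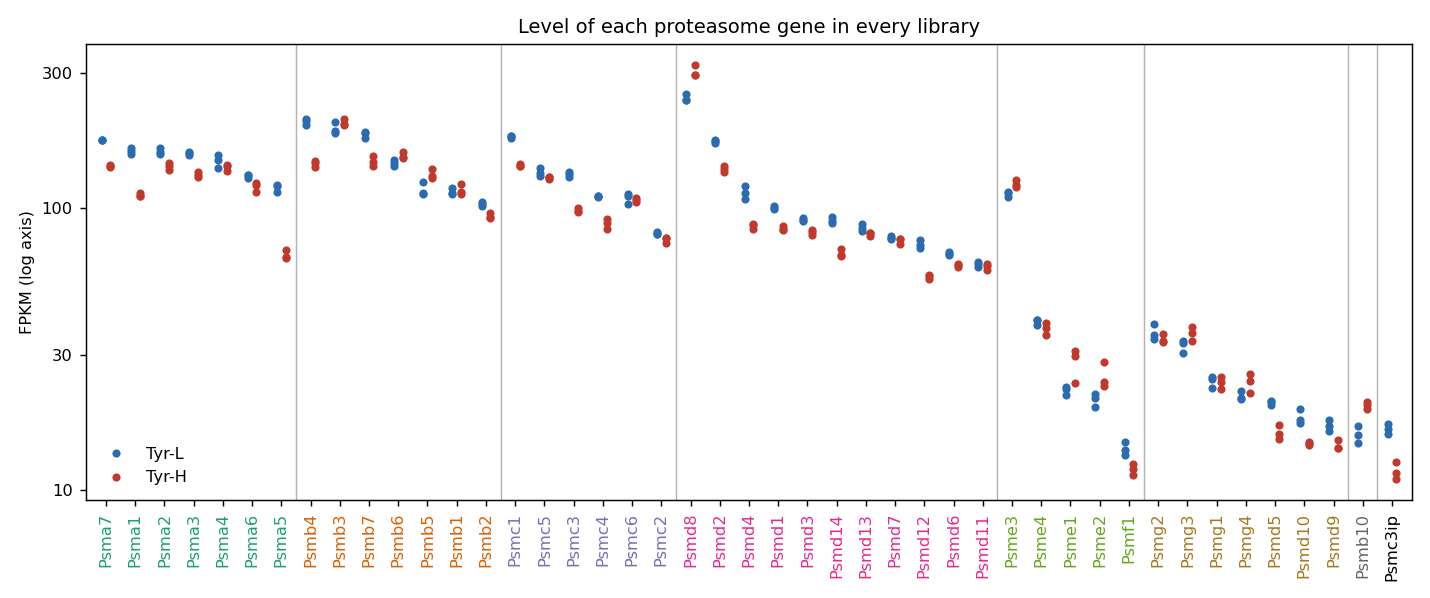
FPKM (log y axis) of the 45 tested proteasome genes in every library, Tyr-L in blue and Tyr-H in red, grouped by class between the vertical lines. Core and 19S genes lie above the assembly chaperones in every library, and Psmd8 is the highest in both groups.

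The alpha ring had the lowest median log2 fold change of the classes, except after the GC and length correction, where the medians of the ATPases (-0.10) and of the lid and base (-0.08) were lower. Of its 7 genes, 6 were lower in Tyr-H cells and 1, Psma4, was not called (all tested genes, 39.9% lower and 17.9% higher). Their summed expression was 1047, 1039 and 1029 FPKM in Tyr-L cells and 847, 850 and 850 in Tyr-H cells, or 81.8% of the Tyr-L mean. The median log2 fold change was -0.25, and below 0 under all 5 scalings, from -0.34 at equal totals to -0.02 after the GC and length correction. Psma5 (ENSMUSG00000068749, chr3:108256926-108279974), the alpha5 subunit, had 119, 120 and 114 FPKM in Tyr-L cells and 67.0, 66.5 and 70.7 in Tyr-H cells. The groups lay far apart, and no member fell further (log2 fold change -0.79, standard error 0.04, adjusted p = 5e-07, limma). Its share of the alpha ring sum went from 11.3% ± 0.212 to 8.02% ± 0.265 (SD, n = 3 each). Psma1 (ENSMUSG00000030751, chr7:114264606-114276118), the alpha6 subunit, had 163, 159 and 155 FPKM in Tyr-L cells and 113, 110 and 110 in Tyr-H cells. Again every Tyr-H library was below every Tyr-L library (-0.52, standard error 0.03, adjusted p = 2e-06, limma). The Psma1 value was -0.36 after median ratio scaling and -0.28 after the GC and length correction. Psma2, Psma3, Psma6 and Psma7 fell by 0.12 to 0.30 on the log2 scale, but for Psma2 and Psma6 the sign changed between scalings and the Psma3 call was lost after the GC and length correction (-0.02, adjusted p = 0.58). The Psma6 call was lost without Tyr-L replicate 2 or 3 or Tyr-H replicate 1 (-0.11, -0.11 and -0.09, adjusted p from 0.054 to 0.059). Psma4 (alpha3) had 153, 138 and 147 FPKM in Tyr-L cells and 141, 142 and 135 in Tyr-H cells, which overlapped (-0.07, adjusted p = 0.19, limma; 0.09 after median ratio scaling). It was called lower at equal totals (-0.16, adjusted p = 0.013) and higher after the GC and length correction (0.15, adjusted p = 0.013). Psma5 shares 60 bases of exon with 1700010K24Rik, and its processed pseudogenes Gm8394 (98.6% identical) and Gm12989 (97.5%) were at no more than 0.308 FPKM in any library.

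The beta ring moved in both directions. Of its 7 genes 3 were lower (Psmb4, Psmb7, Psmb2), 1 was higher (Psmb5) and 3 were not called, against 39.9% lower and 17.9% higher among all tested genes. The Psmb2 call (-0.14) was lost after median ratio scaling (0.01, adjusted p = 0.80) and the GC and length correction (-0.05, adjusted p = 0.36). The sums were 1048, 1073 and 1032 FPKM in Tyr-L cells and 979, 958 and 1008 in Tyr-H cells (93.4%), close but not overlapping. The median of 0.02 turned to -0.08 at equal totals and was 0.17 after median ratio scaling. The alpha ring made up 50.0%, 49.2% and 49.9% of the core particle sum in Tyr-L and 46.4%, 47.0% and 45.8% in Tyr-H libraries. Psmb4 (ENSMUSG00000005779, chr3:94884093-94886961), the beta7 subunit, which has no active site, had 202, 206 and 196 FPKM in Tyr-L cells and 144, 139 and 146 in Tyr-H cells. The gap was larger than the spread within either group (-0.49, standard error 0.03, adjusted p = 3.8e-06, limma), and Psmb4 went from 19.1% ± 0.139 to 14.6% ± 0.169 of the beta ring sum (SD, n = 3 each). Psmb3 (beta3) had 187, 201 and 184 FPKM in Tyr-L cells and 198, 197 and 206 in Tyr-H cells, and the groups overlapped (0.07, adjusted p = 0.16, limma). Its value was -0.02 at equal totals and 0.23 after median ratio scaling, where it passed the test (adjusted p = 0.0015), as it did after the GC and length correction (0.20, adjusted p = 0.0011) and without Tyr-L replicate 2 (adjusted p = 0.034).

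The 3 active-site genes did not move together. Psmb5 (ENSMUSG00000022193, chr14:54614119-54618022), which cuts after hydrophobic residues, had 112, 123 and 113 FPKM in Tyr-L cells and 127, 129 and 137 in Tyr-H cells. It was higher without overlap (0.18, standard error 0.05, adjusted p = 0.0088, limma), a call lost at equal totals (0.08, adjusted p = 0.14) and, narrowly, without a variance trend (adjusted p rounded to 0.05). Psmb6, which cuts after acidic residues, had 148, 144 and 141 FPKM in Tyr-L cells and 151, 150 and 157 in Tyr-H cells. These did not overlap but missed the threshold (0.08, adjusted p = 0.066, limma), and the value was -0.01 at equal totals. Psmb6 was called higher after median ratio scaling (0.23, adjusted p = 3.2e-04), quantile normalization (0.10, adjusted p = 0.02) and the GC and length correction (0.17, adjusted p = 7.3e-04). Psmb7, which cuts after basic residues, had 184, 185 and 177 FPKM in Tyr-L cells and 145, 140 and 152 in Tyr-H cells. It was lower (-0.32, standard error 0.04, adjusted p = 9.5e-05, limma), but not past the threshold after the GC and length correction (-0.09, adjusted p = 0.10). Psmb7 shares 405 exonic bases with Nek6 on the opposite strand, and Psmb5 holds Mir686.

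Psmb10, the inducible subunit that takes the place of Psmb7 in the immunoproteasome, had 14.6, 16.8 and 15.6 FPKM in Tyr-L cells and 19.4, 20.0 and 20.4 in Tyr-H cells. All Tyr-H values were higher (0.35, standard error 0.06, adjusted p = 6.6e-04, limma), the largest increase among the members, and it was higher under all 5 scalings. As a share of Psmb7 and Psmb10 together it was 7.35%, 8.34% and 8.09% in Tyr-L and 11.8%, 12.4% and 11.8% in Tyr-H libraries. Psmb8 and Psmb9, the inducible counterparts of Psmb5 and Psmb6, were almost silent. Psmb8 was at no more than 0.129 FPKM in Tyr-L cells and 0.163 in Tyr-H cells. Psmb9 was at 0, 0.0948 and 0.0672 FPKM in Tyr-L cells and 0.193, 0.198 and 0.200 in Tyr-H cells, where 3 fragments are worth 0.0482 to 0.0550 FPKM. It was called higher (1.00, standard error 0.35, adjusted p = 0.035, limma), but the value ran from 0.18 with a pseudocount of 1 FPKM to 2.26 with one of 0.01 FPKM, where the call was lost (adjusted p = 0.068). The call was also lost when any library other than Tyr-L replicate 2 was left out (values from 0.72 to 1.09, adjusted p from 0.051 to 0.098), so no direction is read from it. Psmb11, the thymus form, did not exceed 0.0116 FPKM in any library, below the 0.0327 to 0.0374 FPKM that 3 fragments give.

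On the deposited values no ATPase was called higher. Of 6 genes, Psmc1, Psmc3 and Psmc4 were lower and Psmc2, Psmc5 and Psmc6 were not called (all tested genes, 39.9% lower and 17.9% higher). Their sum was 746, 734 and 746 FPKM in Tyr-L cells and 639, 638 and 635 in Tyr-H cells (85.9%). The median of -0.20 lay between -0.29 and -0.05 under the 5 scalings. Psmc3 (Rpt5) had 132, 134 and 128 FPKM in Tyr-L cells and 97.1, 96.2 and 100 in Tyr-H cells. The groups were well separated (-0.42, standard error 0.03, adjusted p = 7.6e-06, limma), and the gene shares 215 exonic bases with Slc39a13. Psmc6 (Rpt4) had 110, 103 and 112 FPKM in Tyr-L cells and 106, 108 and 105 in Tyr-H cells. Its groups overlapped (-0.03, adjusted p = 0.56, limma), but it was called higher after median ratio scaling (0.13, adjusted p = 0.016) and after the GC and length correction (0.24, adjusted p = 7.2e-05), and lower at equal totals (-0.12, adjusted p = 0.034). Psmc2 was likewise called higher after the GC and length correction (0.16, adjusted p = 0.0019) and lower at equal totals (-0.17, adjusted p = 0.0027). Psmc1 and Psmc4 fell by 0.34 and 0.32 on the log2 scale and were called lower under all 5 scalings.

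Among the 11 lid and base subunits, 7 were lower, 1 was higher and 3 were not called (all tested genes, 39.9% lower and 17.9% higher). Their sum was 1171, 1195 and 1174 FPKM in Tyr-L cells and 1095, 1095 and 1112 in Tyr-H cells (93.3%), and the median of -0.15 was 0.00 after median ratio scaling. Psmd4 (ENSMUSG00000005625, chr3:95032694-95042614), the ubiquitin receptor Rpn10, had 113, 119 and 107 FPKM in Tyr-L cells and 84.0, 87.8 and 87.0 in Tyr-H cells. It was lower without overlap (-0.39, standard error 0.04, adjusted p = 5.3e-05, limma). Psmd14, the deubiquitinase Rpn11, and Psmd12 (Rpn5) fell by 0.39 and 0.38 on the log2 scale. After the GC and length correction they were at -0.15 and -0.23. Psmd1 (Rpn2), a scaffold of the base, had 99.2, 101 and 100 FPKM in Tyr-L cells and 83.6, 86.4 and 84.0 in Tyr-H cells. All Tyr-H values were lower (-0.24, standard error 0.03, adjusted p = 1.3e-04, limma). The difference was smaller after median ratio scaling (-0.09, adjusted p = 0.035) and the GC and length correction (-0.08, adjusted p = 0.033). Psmd1 overlaps Htr2b over 252 exonic bases and Gm21972 over 301.

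Psmd8 (ENSMUSG00000030591, chr7:29174188-29180701), the lid subunit Rpn12, stood apart. It had 241, 253 and 241 FPKM in Tyr-L cells and 295, 296 and 321 in Tyr-H cells. Every Tyr-H library was higher (0.31, standard error 0.04, adjusted p = 1.8e-04, limma), and it was higher under all 5 scalings. No other 19S subunit was called higher on the deposited values. Psmd8 made up 20.6%, 21.2% and 20.5% of the lid and base sum in Tyr-L and 27.0%, 27.0% and 28.8% in Tyr-H libraries.

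**Figure D4:**
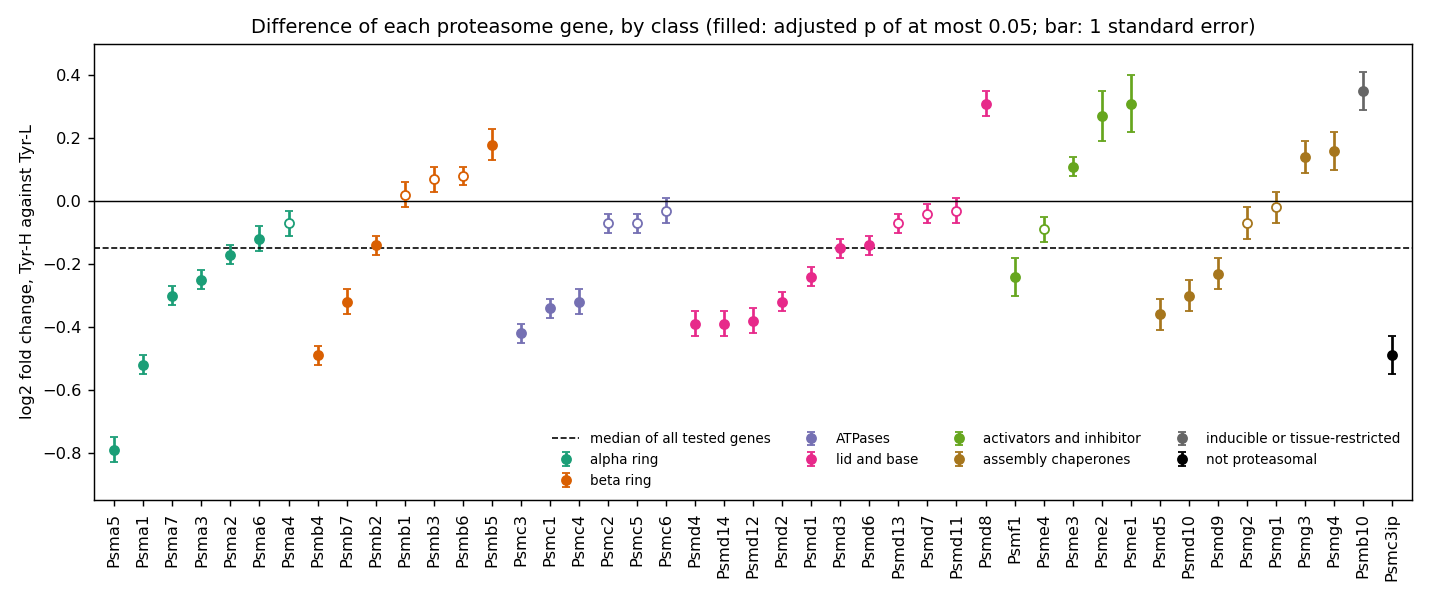
Log2 fold change (Tyr-H over Tyr-L, y axis) for the 45 tested proteasome genes by class, with 1 standard error; filled points passed an adjusted p of 0.05 (limma) and the dashed line is the all-gene median of -0.15. On the deposited values Psma5 is lowest at -0.79, and Psmd8 is the one filled point above 0 among the 19S subunits; 18 of the genes change sign between scalings.

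Of the 5 activators and inhibitor, 3 were higher, 1 was lower and 1 was not called (17.9% of all tested genes were higher and 39.9% lower), and the median of 0.11 stayed above 0 under the 5 scalings (0.02 to 0.27). The 3 higher calls, Psme1, Psme2 and Psme3, were lost without a variance trend (adjusted p = 0.057, 0.055 and 0.076). Psme1 and Psme2 encode the chains of the interferon-inducible cap PA28. Psme1 had 21.7, 22.7 and 23.1 FPKM in Tyr-L cells and 23.8, 29.8 and 30.9 in Tyr-H cells. Tyr-H replicate 1 lay just above the Tyr-L values and the other two well above them (0.31, standard error 0.09, adjusted p = 0.012, limma). Without Tyr-H replicate 2 the value was 0.27 and the adjusted p rose to 0.05, just past the threshold. Psme2 had 19.6, 21.2 and 21.9 FPKM in Tyr-L cells and 24.0, 23.4 and 28.3 in Tyr-H cells. These too did not overlap (0.27, standard error 0.08, adjusted p = 0.013, limma), though the call was lost at equal totals (0.17, adjusted p = 0.059). Set against the core particle sum, Psme1 and Psme2 together came to 1.97%, 2.08% and 2.19% in Tyr-L and 2.62%, 2.94% and 3.19% in Tyr-H libraries. Psme2b, which is 99.4% identical to Psme2 over the aligned transcript, was at 0.110 FPKM in Tyr-L replicate 1 and unlisted elsewhere. That lies under the 0.166 to 0.190 FPKM that 3 fragments give. Few reads were thus counted for Psme2b, and how reads matching both genes were assigned is not given.

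Psme3 encodes the nuclear cap PA28gamma and was the most abundant activator. It had 109, 113 and 114 FPKM in Tyr-L cells and 120, 125 and 118 in Tyr-H cells. The groups did not overlap (0.11, standard error 0.03, adjusted p = 0.018, limma), but the call was lost at equal totals (0.02, adjusted p = 0.72), without Tyr-L replicate 1 (adjusted p = 0.07) and without Tyr-H replicate 2 (adjusted p = 0.073). Psme4, the nuclear cap PA200, had 39.8, 38.5 and 39.9 FPKM in Tyr-L cells and 35.3, 39.0 and 37.3 in Tyr-H cells and overlapped (-0.09, adjusted p = 0.12, limma). It was called lower at equal totals (-0.18, adjusted p = 0.0081) and higher after the GC and length correction (0.24, adjusted p = 5.2e-04). Psmf1, the inhibitor PI31, had 13.8, 13.3 and 14.8 FPKM in Tyr-L cells and 11.8, 12.3 and 11.3 in Tyr-H cells. It was lower (-0.24, standard error 0.06, adjusted p = 0.0058, limma), a call that was lost after median ratio scaling (-0.09, adjusted p = 0.22), quantile normalization (-0.09, adjusted p = 0.20) and the GC and length correction (-0.10, adjusted p = 0.14).

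Among the assembly chaperones 3 were lower, 2 higher and 2 not called, against 39.9% lower and 17.9% higher among all tested genes, and they summed to 169 to 170 FPKM in Tyr-L cells and 158 to 166 in Tyr-H cells. Psmd5, Psmd9 and Psmd10, which bind ATPases during assembly of the 19S base, were all 3 lower as deposited. The Psmd9 call was lost after median ratio scaling (-0.08, adjusted p = 0.25) and quantile normalization (-0.09, adjusted p = 0.16), and the Psmd10 call after the GC and length correction (-0.06, adjusted p = 0.44). Of Psmg1 to Psmg4, which build the alpha ring, Psmg3 and Psmg4 were higher and Psmg1 and Psmg2 were not called, so that the median over the 7 was -0.07 and turned to 0.08 after median ratio scaling. Psmd5 had 20.0, 20.7 and 20.4 FPKM in Tyr-L cells and 15.7, 15.1 and 16.9 in Tyr-H cells. These did not overlap (-0.36, standard error 0.05, adjusted p = 2.8e-04, limma; -0.12, adjusted p = 0.095 after the GC and length correction). Psmg4 had 21.1, 22.3 and 20.9 FPKM in Tyr-L cells and 24.2, 22.1 and 25.8 in Tyr-H cells. Here Tyr-H replicate 2 lay within the Tyr-L range (0.16, standard error 0.06, adjusted p = 0.041, limma), and the call was lost without Tyr-L replicate 1 or 3 or Tyr-H replicate 1 or 3 (adjusted p from 0.091 to 0.13). The Psmg3 call (0.14, adjusted p = 0.047, limma) was lost without Tyr-L replicate 1 or 2 or Tyr-H replicate 1 or 3 (0.10 to 0.15, adjusted p from 0.067 to 0.16). Both calls were lost at equal totals (0.05 for Psmg3 and 0.07 for Psmg4, adjusted p = 0.55 and 0.35). The difference between the 2 kinds of chaperone was not tested. Psmc3ip, the unrelated recombination factor, had 15.7, 16.4 and 17.1 FPKM in Tyr-L cells and 12.5, 11.5 and 10.9 in Tyr-H cells. It was lower (-0.49, standard error 0.06, adjusted p = 1.3e-04, limma) and shares 385 exonic bases with Mlx.

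The calls were unevenly spread over the chromosomes. Chromosomes 2 and 3, singled out after their values were seen, had the lowest medians over all their tested genes, -0.39 over 1150 genes and -0.38 over 780. All 9 members there were lower in Tyr-H cells: Psma7, Psmb7, Psmc3, Psmd14, Psmf1 and Psmd5 on chromosome 2, and Psma5, Psmb4 and Psmd4 on chromosome 3. Their median of -0.39 equalled that of all 1930 tested genes of the pair, of which 60.2% were lower. On the other chromosomes 15 of 36 members (41.7%) were lower and 8 (22.2%) higher, against 36.8% and 19.4% of 12406 genes, with medians of -0.07 and -0.12. All 8 members called higher lay there, 3 of them (Psmb5, Psme1, Psme2) on chromosome 14, whose other 471 genes had the highest median, 0.00. After the GC and length correction, 6 of the 9 members on chromosomes 2 and 3 were lower (66.7%, against 46.4% of all genes there), and all genes there had a median of -0.22 against 0.03 elsewhere. On the other chromosomes 9 of 36 members were then lower and 17 (47.2%) higher, against 22.9% and 30.7% of all genes. Psma5 lay below the lower quartile of its chromosome (-0.70). Within 1000000 bases on each side of it, 37 other tested genes had a median of -0.48, and 12 of them had a lower value than Psma5. Psmb4 and Psmd4, by contrast, lay near the middle of their surroundings, with 26 of 53 and 29 of 59 neighbours lower than they were. These 2 genes lie close together, so their windows hold largely the same neighbours. Of the 6 genes near Psma1, with a median of -0.01, 1 was lower than it, and of the 42 near Psmb5, with a median of -0.05, 27 were. Around Psmd8, 51 genes had a median of -0.26 and 45 of them were below it. The number of copies of each chromosome was not measured, and its part in these differences was not tested.

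**Figure D5:**
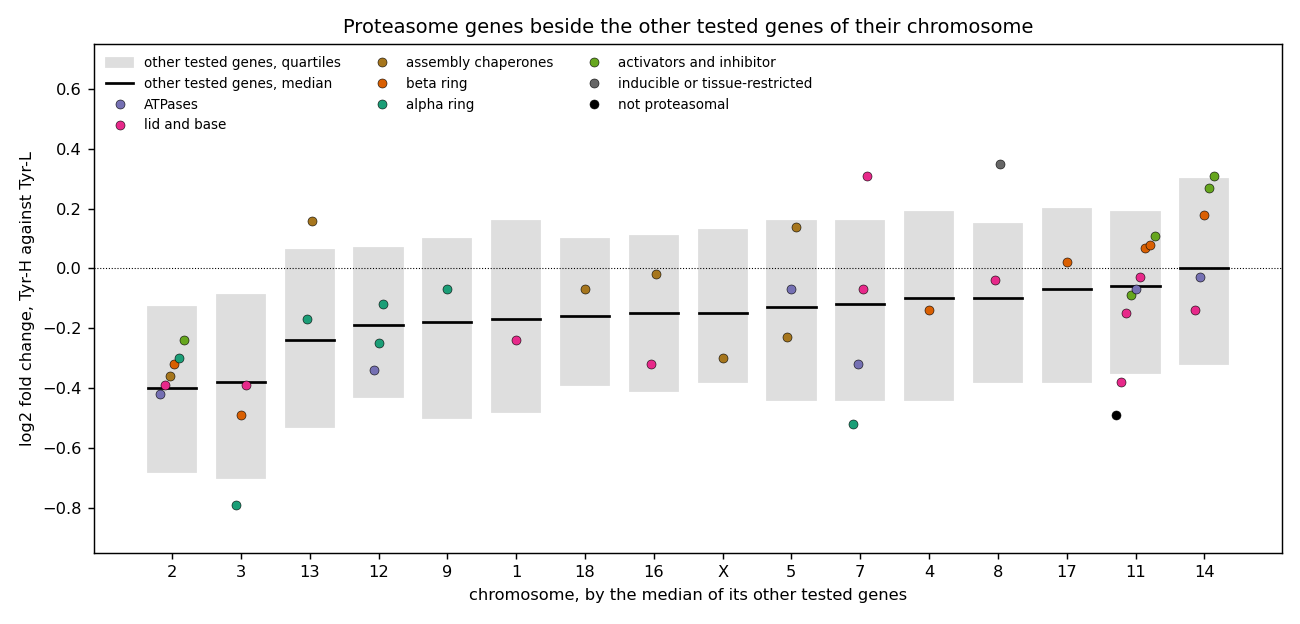
Chromosomes on the x axis are ordered by the median log2 fold change of their other tested genes (black line, with quartiles in grey); coloured points are the 45 proteasome genes, and the y axis is the log2 fold change (Tyr-H over Tyr-L) as deposited. The 9 points on chromosomes 2 and 3 lie between -0.79 and -0.24, with Psma5 beneath its quartile box; 18 of the 45 genes change sign between scalings.

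The genes that work with the proteasome but carry other symbols were counted from lists of the same kind, whose counts stand beside 39.9% lower and 17.9% higher among all tested genes. Of 12 proteasome-bound proteins and factors, 11 were listed and tested; 5 were lower, 1 higher and 5 not called, with a median of -0.15 that turned to 0.15 after the GC and length correction. Adrm1, the ubiquitin receptor Rpn13, had 66.9, 68.2 and 66.1 FPKM in Tyr-L cells and 54.4, 53.3 and 51.0 in Tyr-H cells (-0.34, standard error 0.04, adjusted p = 4.3e-05, limma). Usp14, a deubiquitinase bound to the base, had a log2 fold change of -0.36 (adjusted p = 4.2e-05), a call lost after the GC and length correction (-0.06, adjusted p = 0.11). Akirin2, which carries proteasomes into the nucleus, was the one gene called higher (0.35, adjusted p = 5.8e-05), and Zfand5 was lower (-0.24). The Zfand5 call was lost after median ratio scaling (-0.09, adjusted p = 0.096) and turned to higher after the GC and length correction (0.15, adjusted p = 0.0084). Of 8 shuttle proteins that bring substrates to the proteasome, 7 were listed. Of these 4 were lower, among them Ubqln2 (-0.45), Ddi2 (-0.33) and Ubqln4 (-0.21), and 3 were higher, among them Nub1 (0.45). The Ubqln4 call was lost after median ratio scaling (-0.05, adjusted p = 0.29), and Ddi2 was at -0.01 after the GC and length correction.

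The genes of the NRF1 axis moved in both directions, with 3 of 7 higher, 3 lower and 1 not called, against 17.9% higher and 39.9% lower among all tested genes. Nfe2l1 had 54.5, 60.6 and 61.2 FPKM in Tyr-L cells and 94.8, 111 and 106 in Tyr-H cells. The Tyr-H values were far above the Tyr-L values (0.82, standard error 0.06, adjusted p = 7e-06, limma). Ngly1, which removes the sugars of NRF1, was also higher (0.52), whereas Ddi2, the protease that cuts it, and Vcp, which extracts it from the membrane, were lower (-0.33 and -0.23). The Ddi2 call was lost after the GC and length correction (-0.01, adjusted p = 0.91) and the Vcp call after median ratio scaling (-0.07, adjusted p = 0.062). Nfe2l2, encoding the related factor NRF2, was lower (-0.26; -0.10 after the GC and length correction). Of the 22 members with a TGANNNNGC match in the window, 9 were lower, 4 higher and 8 not called, and Psmb11 was not tested; over all tested genes 39.9% were lower and 17.9% higher. The E1 enzymes Uba6 and Uba1, which load ubiquitin, were higher, with log2 fold changes of 0.21 and 0.10 (adjusted p = 0.025 and 0.038, limma). Both calls were lost at equal totals (0.12 and 0.01, adjusted p = 0.20 and 0.88). The Uba6 call was also lost without Tyr-L replicate 2 or Tyr-H replicate 2 (0.15 and 0.18), and the Uba1 call without Tyr-L replicate 1, Tyr-L replicate 2 or Tyr-H replicate 3 (0.09, 0.10 and 0.07).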

How the data were processed

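RNA of 3 Tyr-L and 3 Tyr-H libraries had been sequenced on an Illumina instrument as paired 150 bp reads. Per the labels, the submitters' processing notes name Trimmomatic, HISAT2 and HISAT and the build GRCm38.p6; the quantifier and annotation are not given in the sources used here. The authors deposited 1 table of FPKM values per library, and genes without a value were taken as 0. Group and replicate number came from the sample labels. Depth was estimated from the step of the lowest values, and a floor of 3 fragments from it; both are approximate and cover counting error only. Fragment counts were not analysed here, so no count test was run.

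Differences were fitted to log2(FPKM + 0.1) of 14336 genes, those with a mean of 0.1 FPKM or more, with limma 3.58.1 in R 4.3.3 (variance trend, two-sided, Benjamini-Hochberg over all tested genes). All log2 fold changes are on that scale, which understates changes of low genes. An exact permutation test of 3 against 3 libraries cannot go below 0.1 and is not quoted. The procedure was tested on simulated data. Classes were described by counts, sums and medians, with no set test. Near-identical transcripts (at least 95% identity over 200 bases) were found with minimap2 2.31 in GENCODE M21 (GRCm38). Of 47 members, 13 share exonic bases with another gene and 9 have pseudogene copies of at least that identity, of which Gm13835 (Psma3) reached 13.1 FPKM and the others under 1 FPKM; whether reads were counted by strand is not given, so these values are uncertain. Promoter windows came from RefSeq (GRCm38.p6). Sem1 and Ecpas were matched by gene identifier.

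The members and gene lists were chosen with earlier results of these data known. Named with values were Psma1, Psmd1, the largest and smallest log2 fold change of each class, the highest levels, the active-site genes, activators, inhibitor, inducible and unrelated members, and up to 4 genes of each partner list with the smallest adjusted p, except for 1 partner list that is not reported here in full; other names were chosen after their values were seen. The alternatives were other pseudocounts (0.01, 1 FPKM) and filters, 4 other scalings, no variance trend, a replicate block and leaving out each library.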

Additional observations from a re-analysis of the deposited data

How the results depend on the processing

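For 45 of the genes named with a test, those chosen by the naming rule, 764 values were computed under 17 other settings: 660 kept their direction and their side of the threshold, 68 lost and 11 gained the threshold, and 25 changed sign; the causes were not tested. The count of 24 lower members became 15 after the GC and length correction and 14 with that correction and the replicate block. The count of 8 higher members became 3 at equal totals, 15 after median ratio scaling, 17 after the GC and length correction (16 with the block) and 2 without a variance trend. Leaving out 1 library gave 23 to 24 lower and 5 to 8 higher. Shares of all tested genes were not counted without a variance trend, with the block or without 1 library. No member passed the fold threshold in any of these settings. The replicate block alone gave 24 lower and 6 higher; same-numbered libraries correlated at 0.02, 0.01 and -0.08, so the numbers were not taken to pair them.

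Medians of log2 fold change followed the scaling. At equal totals they were -0.34 (alpha ring), -0.08 (beta ring), -0.29 (ATPases), -0.25 (lid and base), -0.17 (chaperones) and -0.23 (all members). After median ratio scaling they were -0.10, 0.17, -0.05, 0.00, 0.08 and 0.01, and 0.27 for the activators and inhibitor. After quantile normalization they were -0.16 (ATPases), -0.10 (lid and base), 0.03 (chaperones) and -0.09 (all members). After the GC and length correction, with or without the block, they were -0.02 (alpha ring), 0.14 (beta ring), -0.10 (ATPases), -0.08 (lid and base), 0.08 (chaperones) and 0.02 (all members).

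Signs changed as follows. Psma4 was 0.09 after median ratio scaling and 0.15 after the GC and length correction; Psmc6 was 0.13, 0.24 and, after quantile normalization, 0.00; Psme4 was 0.07, 0.24 and 0.01. At equal totals Psmb3 was -0.02 and Psmb6 -0.01. After the GC and length correction Zfand5 was 0.15, Cops2 0.01, Cops5 0.03, Cct8 0.04 and Cct6a 0.02, and after median ratio scaling Cops5 was 0.01 and Cct6a 0.02. With 18900000 to 21600000 fragments per library, depth limits Psmb8, Psmb9, Psmb11 and Psme2b. These lay near or under the floor of 3 fragments, except Psmb9 in Tyr-H cells. Its values there were 0.193 to 0.200 FPKM, against a floor of 0.0482 to 0.0550 FPKM.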

Other observations

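In the COP9 signalosome, which resembles the lid of the 19S particle and removes NEDD8 from cullins, 3 of 9 genes were lower in Tyr-H cells, 1 was higher and 5 were not called (39.9% and 17.9% of all tested genes were lower and higher), with a median log2 fold change of 0.06 (0.21 after median ratio scaling). Cops7b had 16.1, 16.1 and 15.1 FPKM in Tyr-L and 12.1, 12.6 and 12.6 FPKM in Tyr-H libraries, without overlap (-0.34, standard error 0.05, adjusted p = 3.2e-04, limma), a call lost after the GC and length correction (-0.11, adjusted p = 0.086). Cops2 (-0.25) and Cops5 (-0.15), the catalytic subunit, were lower as deposited and above 0 after the GC and length correction. The Cops5 call was lost without Tyr-L replicate 1 or 2 or Tyr-H replicate 1 or 2 (-0.14 to -0.12, adjusted p from 0.071 to 0.092). Cops3 was higher (0.19).

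In the CCT chaperonin, which folds actin and tubulin, 3 of 8 genes were lower, 2 higher and 3 not called (39.9% and 17.9% of all tested genes were lower and higher), with a median of -0.03 (0.14 after the GC and length correction). Cct3, on chromosome 3, had 309, 304 and 293 FPKM in Tyr-L and 229, 230 and 237 FPKM in Tyr-H libraries, and the groups lay far apart (-0.38, standard error 0.03, adjusted p = 1.4e-05, limma). Cct7 was higher (0.19; 0.09 at equal totals, adjusted p = 0.054), and Cct8 (-0.17) and Cct6a (-0.13) were lower as deposited but above 0 after the GC and length correction. None of these genes passed a log2 fold change of 1 in either direction.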
